A study of Mus musculus with 6 samples.

Results

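The genes described here are 10 subunits of the integrins by which endothelial cells (ECs) hold on to the extracellular matrix: Itga1, Itga2, Itga3, Itga5, Itga6, Itgav, Itgb1, Itgb3, Itgb4 and Itgb5. They were chosen by name for this role, and all 10 were found among the 24346 gene symbols of the series. RNA-sequencing was done on CD31+CD45- ECs sorted from MC38 tumors, a colon carcinoma line grown in C57BL/6 mice of 8 to 10 weeks. There were 3 samples from wild-type (WT) mice and 3 from mice that lack Apelin (Apelin-KO), all labelled saline, with tumors taken at day 19. The knockout is carried by the host, while the same inoculated tumor line was used in both genotypes. WT mice were purchased and Apelin-KO mice were bred on the same background, so the source of the mice and the genotype cannot be told apart. Neither the labels nor the methods say whether a sample came from a single mouse or a pool, so the p-values measure the spread between these samples.

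Values are FPKM, read counts divided by transcript length and by the mapped reads of the sample, so that levels can be compared between genes. Differences are log2 fold changes of Apelin-KO over WT on log2(FPKM + 1), tested with limma over the 10964 genes whose mean reached 1 FPKM. Apln, the targeted gene, stood at 432 to 504 FPKM in WT and at 9.96 to 24.3 FPKM in Apelin-KO, with an adjusted p of 0.00747 in limma. The depth, estimated from the steps in the low values, was 8950000 to 10180000 reads per sample. Of 15 endothelial markers, all 15 were above the filter, with summed levels of 4979 to 6343 FPKM. The epithelial marker Epcam was at most 0.264 FPKM, and 11 of 12 epithelial and tumor cell markers were below the filter, the exception being Krt20 at 6.41 to 20.6 FPKM. Of 10 platelet markers, Pf4 at 3.91 to 8.72 FPKM and Itga2b passed the filter, 8 were below it, and Gp6 and Treml1 among these were listed at 0 in every sample. Markers of hematopoietic cells were present despite the CD45- gate, with a sum of 291 to 1011 FPKM in WT and 134.5 to 358 FPKM in Apelin-KO. In such bulk samples, fewer cells of a type and less RNA per cell cannot be told apart.

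An integrin is a receptor made of an alpha and a beta chain, and the pairing decides which matrix protein it binds. Itgb1 is the shared beta chain of most matrix receptors: with Itga5 it binds fibronectin, with Itga1 or Itga2 collagens, and with Itga3 or Itga6 laminins of the basement membrane. Itga6 also pairs with Itgb4, while Itgav pairs with Itgb3 or Itgb5 and binds vitronectin and other ligands with an RGD motif. In blood vessels these receptors tie ECs to the basement membrane and carry them over provisional matrix during angiogenesis.

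The stretches upstream of Itga5 and Itgb5 are shown because Itga5 was the most abundant alpha chain and Itgb5 the member with the largest difference between genotypes. Each is the 250 bases before the gene start in RefSeq (GRCm38.p6), 5′ to 3′ in the direction of the gene. Capitals mark the GC box GGGCGG, searched on both strands, so that CCGCCC is the same box on the other strand.
Itga5: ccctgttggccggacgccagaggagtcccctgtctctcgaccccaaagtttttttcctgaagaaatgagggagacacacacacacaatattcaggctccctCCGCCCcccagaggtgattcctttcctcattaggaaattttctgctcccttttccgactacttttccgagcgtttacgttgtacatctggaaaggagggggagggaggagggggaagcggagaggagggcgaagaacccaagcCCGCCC
Itgb5: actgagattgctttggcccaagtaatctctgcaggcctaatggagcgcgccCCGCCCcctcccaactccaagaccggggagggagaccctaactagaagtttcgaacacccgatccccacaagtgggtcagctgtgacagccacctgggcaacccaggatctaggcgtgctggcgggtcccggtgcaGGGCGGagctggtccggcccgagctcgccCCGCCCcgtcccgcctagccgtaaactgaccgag
The Itga5 stretch is chr15:103366792-103367041 on the minus strand and the Itgb5 stretch chr16:33829415-33829664 on the plus strand. The Itga5 stretch holds 2 GC boxes and the Itgb5 stretch 3. A GC box occurs in 32.7% of 32851 promoter stretches of the same length. Their GC content is 55.6% for Itga5 and 65.2% for Itgb5, where the median over all stretches is 52.4%. Neither stretch holds the letters TATAAA, found in 12.4% of stretches, or TGANTCA, the letters of an AP-1 site, found in 6.7%. RefSeq stretches were matched for 7 of the 10 members, and Itga6, Itgb3 and Itgb4 had no entry in the set of stretches used here.

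The levels of the members spanned a wide range, and their upper end was ordered in the same way in every sample. Itgb1 was highest at 548 to 730 FPKM, followed by Itga5 at 192 to 231 FPKM, Itgb3 at 82.4 to 126 FPKM and Itga6 at 62.0 to 77.3 FPKM. None of these ranges overlapped. The other 6 members, Itga3, Itga1, Itgav, Itgb5, Itga2 and Itgb4 in order of their means, lay between 4.29 and 45.5 FPKM. Itga3 was above Itga1 in 2 of 6 samples, Itga1 above Itgav in 4, Itgav above Itgb5 in 6, Itgb5 above Itga2 in 3 and Itga2 above Itgb4 in 5, with overlapping ranges over the 6 samples in each case. Within samples Itgav thus exceeded Itgb5 throughout, while the other neighbours changed places between samples. Over the beta chains, Itgb1 held 81.4% to 85.8% of the summed FPKM and Itgb3 12.2% to 14.8%. Over the alpha chains, Itga5 held 55.5% to 61.0% and Itga6 18.1% to 19.5%. The fibronectin-binding alpha chain was thus the most abundant alpha chain of the list in both genotypes. The sum of the alpha chains, 330 to 416.5 FPKM, was lower than that of the beta chains, 674 to 872 FPKM, in every sample.

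**Figure D1:**
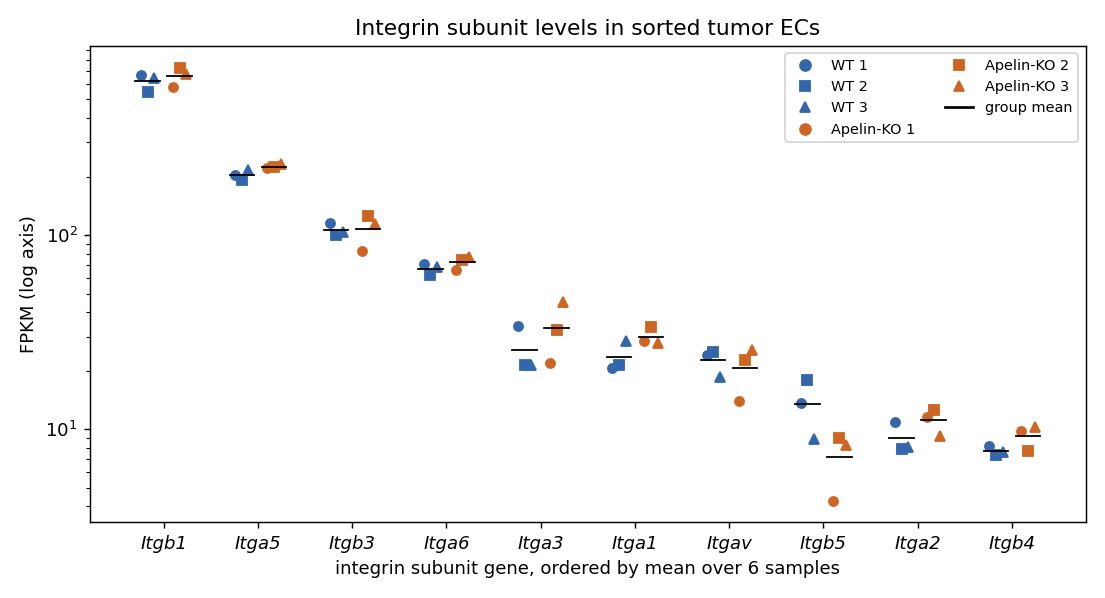
FPKM of the 10 integrin genes in each of the 6 samples on a log axis, with genes in order of their mean level, points for WT and Apelin-KO samples and lines at the group means. Itgb1, Itga5, Itgb3 and Itga6 form separate levels, and only for Itga5 are all Apelin-KO points above all WT points.

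The comparison of Apelin-KO with WT asks whether loss of the Apelin ligand changed the transcript level of these receptors in tumor ECs. None of the 10 members passed an adjusted p under 0.05 in limma. Over all genes tested 1 did, Apln, which is 0.00912%. At an unadjusted p under 0.05 there was 1 member, Itgb5, against a background of 9.42% of all genes in either direction and 5.17% in its direction, lower in Apelin-KO. In the other direction 4.25% of all genes and 0 members had such a p. The groups did not overlap for 1 member, Itga5, against 14.4% of all genes, of which 7.77% lay higher in Apelin-KO and 6.61% lower. Both counts are near the background and are no result about the members. By the sign of the log2 fold change, 7 of 10 members were higher in Apelin-KO, as were 52.5% of all genes. Itgb3, counted as lower at -0.01, had a slightly higher mean FPKM in Apelin-KO. The median log2 fold change was 0.13 over the members and 0.01 over all genes tested.

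**Figure D2:**
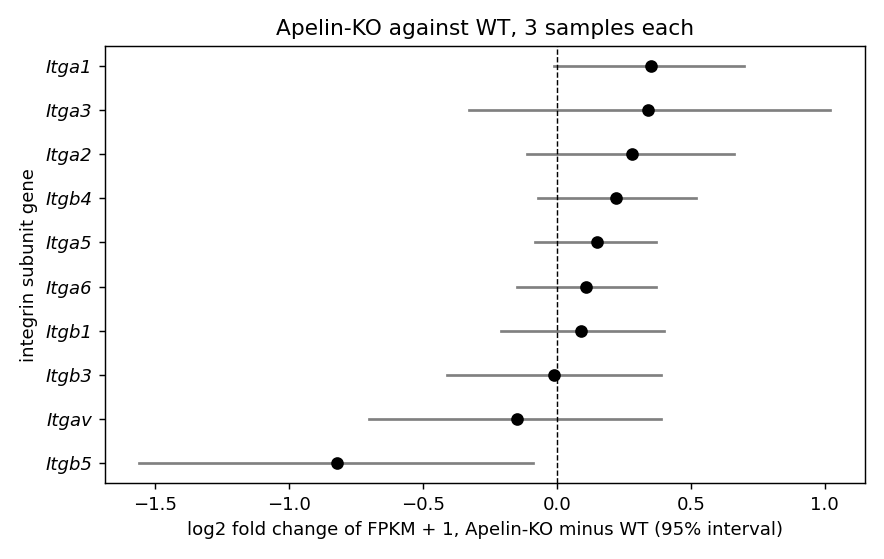
Log2 fold change of Apelin-KO over WT for each of the 10 integrin genes (points) with its 95% interval from limma (lines). The intervals of 9 genes include 0 and that of Itgb5 runs from -1.56 to -0.09.

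Itgb1 (chr8:128685654-128733200, plus strand of GRCm38) codes for the common beta chain. It measured 665, 548 and 644 FPKM in WT 1, 2 and 3 and 581, 730 and 675 FPKM in Apelin-KO 1, 2 and 3. The groups overlapped, and the lowest samples were WT 2 and Apelin-KO 1. The log2 fold change was 0.09 (SE 0.13, 95% interval -0.21 to 0.40) with an adjusted p of 0.847 in limma. Its mean stood at the 99.4th percentile of all genes tested.

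Itga5 (chr15:103344286-103366763, minus strand) codes for the alpha chain of the fibronectin receptor. It measured 203, 192 and 216 FPKM in WT and 222, 224 and 231 FPKM in Apelin-KO. Every Apelin-KO sample was above every WT sample, by little: the means were 204 ± 11.9 (SD, n = 3) and 225.5 ± 5.06 FPKM (SD, n = 3), or 111% of WT. The exact permutation p was 0.1, the smallest that 3 against 3 samples allow. The log2 fold change of 0.15 (SE 0.10, 95% interval -0.08 to 0.37) had an adjusted p of 0.656 in limma. Itga5 also varied least of the members, with a coefficient of variation of 6.72% over the 6 samples. The summed endothelial markers were 5224, 4979 and 5937 FPKM in WT and 6343, 5994 and 6315 FPKM in Apelin-KO, so they too were higher in every Apelin-KO sample, and their part in the Itga5 values was not tested.

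The collagen-binding alpha chains Itga1 and Itga2 lie side by side on the minus strand of chromosome 13 (chr13:114953096-115101964 and chr13:114833081-114932100), with 20995 bases between them. Itga1 binds mainly collagen IV of basement membranes and Itga2 mainly fibrillar collagen I. Itga1 measured 20.6, 21.5 and 28.4 FPKM in WT and 28.4, 33.8 and 27.7 FPKM in Apelin-KO. The groups overlapped only because WT 3 was above Apelin-KO 3. The log2 fold change was 0.35 (SE 0.15, 95% interval -0.01 to 0.70), with a p of 0.0558 and an adjusted p of 0.529 in limma. Itga2 measured 10.96, 7.95 and 8.14 FPKM in WT and 11.6, 12.6 and 9.20 FPKM in Apelin-KO. Here WT 1 reached into the Apelin-KO range, and the log2 fold change was 0.28 (SE 0.16, 95% interval -0.11 to 0.66) with an adjusted p of 0.621. Itga1 shares 685 exon bases with the annotated gene Gm49395 on the same strand, and reads from that stretch cannot be told apart.

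Among the laminin-binding chains, Itga6 (chr2:71745616-71858416, plus strand) was the most abundant. It measured 70.7, 62.0 and 68.2 FPKM in WT and 65.9, 74.5 and 77.3 FPKM in Apelin-KO. The groups overlapped through Apelin-KO 1, and the log2 fold change was 0.11 (95% interval -0.15 to 0.37) with an adjusted p of 0.769. Itga3 (chr11:95044474-95076801, minus strand), the alpha chain of another laminin receptor, varied more between samples of the same genotype. It measured 34.0, 21.4 and 21.4 FPKM in WT and 22.1, 32.5 and 45.5 FPKM in Apelin-KO. The groups overlapped, as WT 1 exceeded all samples but Apelin-KO 3. The log2 fold change of 0.34 had the wide 95% interval of -0.33 to 1.02, with an adjusted p of 0.730. Itgb4 (chr11:115974709-116008412, plus strand), known from the hemidesmosomes of epithelia, was the lowest member by mean but was above the filter in every sample. It measured 8.24, 7.40 and 7.62 FPKM in WT and 9.84, 7.73 and 10.25 FPKM in Apelin-KO. Apelin-KO 2 lay within the WT range, and the log2 fold change was 0.22 (95% interval -0.07 to 0.52) with an adjusted p of 0.611. Itgb4 shares 537 exon bases with B230344G16Rik on the opposite strand, and the strand setting of the counting is not given in the sources used here.

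The chains of the vitronectin receptors came at 3 different levels. Itgav (chr2:83724397-83806916, plus strand), their alpha chain, measured 24.2, 25.1 and 18.6 FPKM in WT and 13.9, 22.6 and 25.6 FPKM in Apelin-KO. The highest and the lowest value were both Apelin-KO samples, and the log2 fold change was -0.15 (95% interval -0.70 to 0.39) with an adjusted p of 0.862. Without Apelin-KO 1 it was 0.10, so its direction rests on that sample. Itgav shares 634 exon bases with Gm13684 on the opposite strand. Itgb3 (chr11:104608000-104670476, plus strand), the beta chain that ECs share with platelets, measured 116, 99.95 and 104 FPKM in WT and 82.4, 126 and 114 FPKM in Apelin-KO. Again Apelin-KO samples held both ends of the range. The means were 106.5 ± 8.47 and 107 ± 22.3 FPKM (SD, n = 3 each), and the log2 fold change was -0.01 (95% interval -0.41 to 0.39) with an adjusted p of 0.991. Its direction also turned, to 0.17 without Apelin-KO 1 and to 0.05 without WT 1. Itga2b, the alpha chain that joins Itgb3 on platelets, was at 0.889 to 1.51 FPKM, and the summed platelet markers were 7.21 to 10.99 FPKM.

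Itgb5 (chr16:33829665-33949338, plus strand), the beta chain that joins Itgav in a vitronectin receptor used in endocytosis and in growth factor signalling, had the largest difference among the members. It measured 13.6, 17.9 and 8.94 FPKM in WT and 4.29, 9.01 and 8.31 FPKM in Apelin-KO. WT 1 and WT 2 were above all other samples, while WT 3 was just below Apelin-KO 2 and kept the groups from separating. The means were 13.5 ± 4.47 and 7.20 ± 2.55 FPKM (SD, n = 3 each), so that Apelin-KO was at 53.5% of WT. The log2 fold change was -0.82 (SE 0.31, 95% interval -1.56 to -0.09), with an unadjusted p of 0.0329 and an adjusted p of 0.513 in limma. The exact permutation p was 0.2. Leaving out WT 2 gave -0.61 and leaving out Apelin-KO 1 gave -0.54, with unadjusted p of 0.104 and 0.0922. Leaving out WT 1 gave -0.79 with an unadjusted p of 0.0751. With 123 to 493 estimated reads per sample and a coefficient of variation of 45.8%, Itgb5 was the most variable member.

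The Itgb5 values followed the hematopoietic markers in their extremes. The summed level of 20 hematopoietic markers was 596, 1011 and 291 FPKM in WT and 134.5, 358 and 324 FPKM in Apelin-KO. WT 2, WT 1 and Apelin-KO 2 were the 3 highest and Apelin-KO 1 was the lowest in both. The summed fibroblast markers were 334, 344 and 198 FPKM in WT and 131.5, 176 and 205 FPKM in Apelin-KO, again with WT 2 highest and Apelin-KO 1 lowest. Of the 20 markers, 14 passed the filter and 13 of these were lower by mean in Apelin-KO. Ptprc, which codes for the CD45 antigen of the sort gate, measured 0.043 to 4.84 FPKM, with the leukocyte integrin chains Itgb2 and Itgam at 0.400 to 8.03 and 0.380 to 9.03 FPKM. The part of these cells in the Itgb5 values was not tested.

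**Figure D3:**
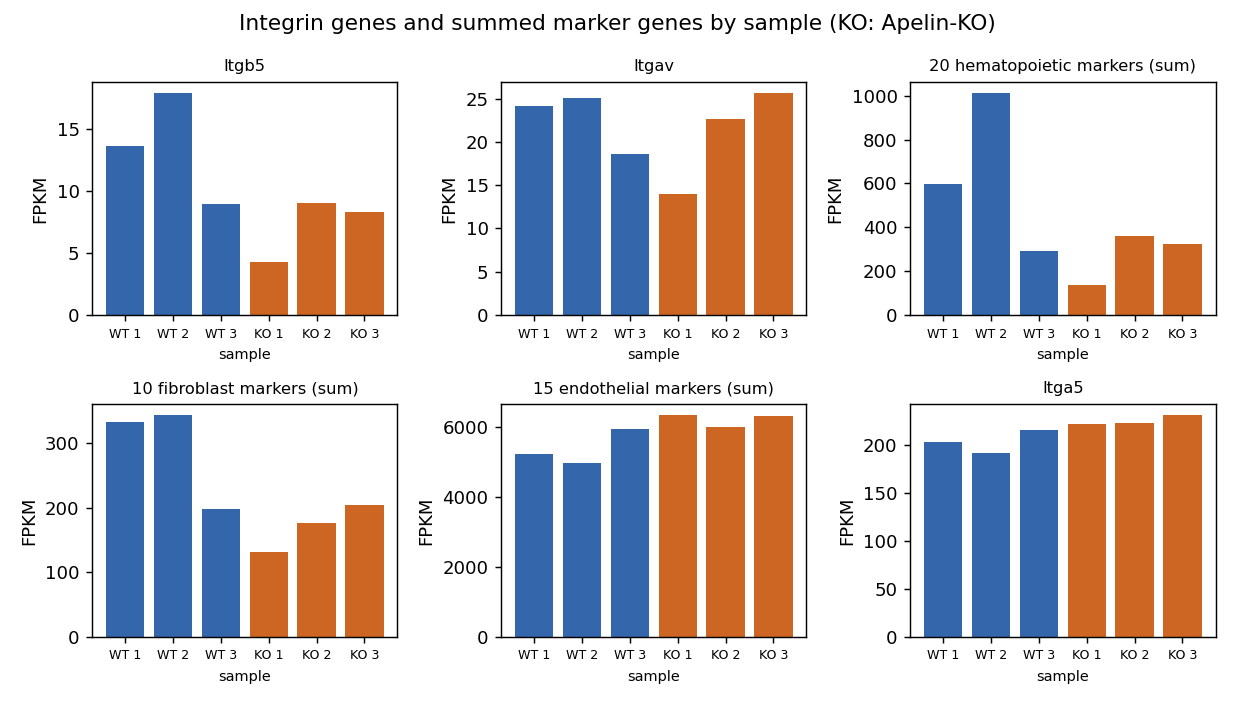
FPKM of Itgb5, Itgav and Itga5 and summed FPKM of the hematopoietic, fibroblast and endothelial markers, with 1 bar for each of the 3 WT and 3 Apelin-KO samples in each panel. WT 2 is highest and Apelin-KO 1 lowest in Itgb5 and in the hematopoietic and fibroblast sums.

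Ratios of members were compared within each sample, as differences of log2(FPKM + 1), for 16 pairs of genes. Some are an alpha and a beta chain of the same receptor and others are chains that share a partner or a ligand. The smallest adjusted p over the 16 pairs was 0.533 by exact permutation tests. The 3 pairs whose groups did not overlap all contained Itgb5. The log2 ratio of Itgb5 to Itgb1 was -5.51, -4.86 and -6.02 in WT and -6.78, -6.19 and -6.18 in Apelin-KO, a difference of -0.92. The log2 ratio of Itgb3 to Itgb5, the alternative partners of Itgav, was 2.42 to 3.39 in WT and 3.62 to 3.98 in Apelin-KO, a difference of 0.81. Itgb3 exceeded Itgb5 by more in each Apelin-KO sample than in any WT sample. The log2 ratio of Itgav to Itgb5 was 0.47 to 0.98 in WT and 1.24 to 1.52 in Apelin-KO, a difference of 0.67. Each of these had an exact permutation p of 0.1, and they are not independent, as Itgb5 enters all of them. As a share of the summed beta chains, Itgb5 was 1.84% in WT and 0.899% in Apelin-KO by mean.

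Of the partners of Itgb1, Itga6 and Itga5 kept the narrowest ratios to it. The log2 ratio of Itga6 to Itgb1 was between -3.27 and -3.11 in all 6 samples, with a difference between genotypes of 0.02. The log2 ratio of Itga5 to Itgb1 was between -1.71 and -1.39, with a difference of 0.05. Itgb1 was thus 2.62 to 3.27 times as abundant as Itga5 and 8.73 to 9.79 times as abundant as Itga6, in FPKM. It was 14.8 to 30.1 times as abundant as Itga3, 20.4 to 32.3 times as Itga1, 21.8 to 41.65 times as Itgav and 50.0 to 79.2 times as Itga2, so these ratios varied more between samples. The log2 ratio of Itgb4 to Itga6 was -2.96, -2.91 and -3.01 in WT and -2.63, -3.11 and -2.80 in Apelin-KO, so that the WT values lay inside the wider Apelin-KO range.

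**Figure D4:**
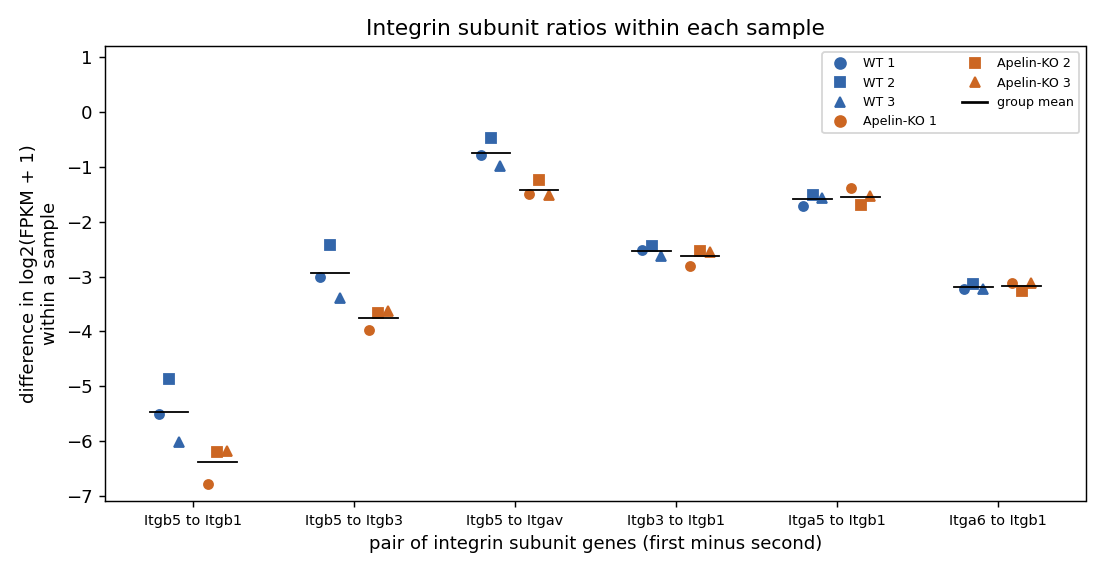
Difference in log2(FPKM + 1) within each sample, first gene minus second, for 6 of the 16 pairs, with 1 point per WT or Apelin-KO sample and lines at the group means. Itgb5 is drawn as the first gene, and its points in Apelin-KO are below all those in WT in the 3 pairs that hold it, while the genotypes overlap in the other 3 pairs.

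Beyond the members, few other integrin chains were measured above the filter. Of 10 other subunits 3 were tested, Itga9 at 23.0 to 32.6 FPKM, Itga7 at 0.683 to 2.39 FPKM and Itga2b, and none had an unadjusted p under 0.05. Itga9, the receptor chain for tenascin and other ligands, had a log2 fold change of 0.15. Itga4, Itga8, Itgb6 and Itgb8 were each at most 0.348 FPKM. The leukocyte chains Itgam and Itgb2 had log2 fold changes of -1.38 and -1.24, with overlapping groups and unadjusted p of 0.0366 and 0.0523 in limma. Both are among the 20 hematopoietic markers and so are part of the hematopoietic sum.

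The transcripts of intracellular proteins that activate integrins or link them to actin mostly differed little by mean. Of 26 activators and adaptors 24 were tested, 17 were higher and 7 lower by mean in Apelin-KO. None had an unadjusted p under 0.05 in limma, where 9.42% of all genes did. The groups did not overlap for 1, Tns1, higher in Apelin-KO, where 7.77% of all genes lay above WT. Their median log2 fold change was 0.11. Talin (Tln1), which binds the beta tail and switches integrins on, measured 56.1 to 76.4 FPKM. Integrin-linked kinase (Ilk) measured 135 to 144 FPKM, and the small GTPase Rap1b, an activator upstream of talin, 469 to 501 FPKM. Actn4, which crosslinks actin at adhesions, measured 288 to 410 FPKM. These levels overlapped between genotypes. Src, the kinase of focal adhesions, had the most negative log2 fold change of the list, -0.52, with overlapping groups. Lims2, a partner of Ilk, had the most positive, 0.38. Of 11 lateral partners of integrins, including the tetraspanins Cd81 (log2 fold change 0.13) and Cd63 (-0.42) and the caveolar protein Cav1 (0.33), none had an unadjusted p under 0.05, and the median log2 fold change was 0.06.

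The matrix ligands of these receptors differed from each other in direction. Of 23 ligands 22 were tested, 16 were higher and 6 lower by mean in Apelin-KO, and the median log2 fold change was 0.18. At an unadjusted p under 0.05 there were 4 of 22 in each direction, where 4.25% of all genes were higher and 5.17% lower. Without overlap 6 lay above and 1 below WT, where 7.77% and 6.61% of all genes did. None passed an adjusted p under 0.05 in limma. Basement membrane components were among the higher ones. Col4a1, the collagen IV chain bound by Itga1, measured 1479, 1240 and 1802 FPKM in WT and 1823, 1821 and 2094 FPKM in Apelin-KO, with a log2 fold change of 0.36. Col4a2, its partner chain, had a log2 fold change of 0.32 with overlapping groups. The unadjusted p in limma was 0.0538 for Col4a1 and 0.0633 for Col4a2. For Col4a1 all Apelin-KO samples were above all WT samples, as they were for Nid1, which links laminin to collagen IV, at 369 to 448 FPKM in WT and 481 to 500 FPKM in Apelin-KO. The summed endothelial markers were higher too, at 4979 to 5937 FPKM in WT and 5994 to 6343 FPKM in Apelin-KO. Their part in these values was not tested. Fn1, the ligand of Itga5, overlapped at 380 to 484 FPKM in WT and 418 to 627 FPKM in Apelin-KO. Vitronectin (Vtn), the ligand of the Itgav receptors, was below the filter at 0 to 1.45 FPKM.

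Among the ligands with a lower mean in Apelin-KO, Spp1 (osteopontin), an RGD ligand that macrophages also make, measured 88.3, 59.0 and 28.6 FPKM in WT and 13.4, 34.5 and 28.0 FPKM in Apelin-KO. Its lowest sample, Apelin-KO 1, was also the lowest in the hematopoietic sum, and the part of these cells was not tested. Edil3, a secreted RGD protein that binds Itgav receptors, measured 6.58, 6.26 and 3.05 FPKM in WT and 1.45, 2.43 and 2.25 FPKM in Apelin-KO. All Apelin-KO samples were below all WT samples, with a log2 fold change of -1.01, an unadjusted p of 0.00619 and an adjusted p of 0.501 in limma. WT 1 and WT 2 were highest and Apelin-KO 1 lowest in Edil3, as in the hematopoietic and fibroblast sums, and the part of these cells was not tested. The name Edil3 can be read in the picture of the study's heat map, whose genes were chosen on these samples, so its direction is not independent evidence. The fibrillar collagens Col1a1 and Col3a1, bound by Itga2 and also fibroblast markers, had log2 fold changes of -0.73 and -0.87, with overlapping groups. Together they made up most of the fibroblast sum in every sample, so their likeness to that sum is no separate observation.

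The genes whose levels followed the 2 most abundant members most closely were found by Pearson's r of log2(FPKM + 1) over the 6 samples, as a description. For Itga5 these were Arhgap31 (r = 0.994), Col4a1 (r = 0.988) and Pcdh12 (r = 0.984). For Itgb1 they were Specc1l (r = 0.993), Mpzl3 (r = 0.989) and Pelo (r = 0.986). The points share their libraries, and the genes were picked as the highest of 10964, so such values are high by selection. Col4a1 was the only gene of the fixed lists among them.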

How the data were processed

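Per the methods, the authors sorted ECs, made mRNA libraries, sequenced them as single reads of 75 bases, mapped them to mm10 and computed FPKM with Cufflinks (2.2.1 in the submitters' processing notes). The deposited FPKM hold no counts, and the gene annotation used is not given in the sources used here. Groups came from the labels. Genes whose mean reached 1 FPKM were tested on log2(FPKM + 1) with limma 3.58.1 in R 4.3.3, two-sided, over all 6 samples without a block, with Benjamini-Hochberg adjustment over 10964 genes. Fold changes on this scale understate those of low genes. Ratios of pairs were compared by exact two-sided permutation tests (scipy 1.17.1), adjusted over 16 pairs. The simulated data had 200 changed genes among 10964. There 72.3% of 2-fold and 95.5% of 4-fold changes reached an adjusted p under 0.05 in limma. The noise was independent and its spread was shuffled between genes, unlike the real data. These shares thus do not give the chance of finding a change in a member. Depth was estimated for 200-base fragments from genes with a single transcript. Alternatives changed the pseudocount, the filter, the scaling, the variance model, the block and the samples included. Named genes were the members, Apln, the 2 genes highest in mean of each other list, in lists that are not markers the 2 with the largest absolute log2 fold change, and the 3 genes most like Itga5 and Itgb1. Other genes were named after their values were seen. The members and lists were chosen with earlier results of these data known. Coordinates are GENCODE M21 on GRCm38, the assembly of mm10.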

Additional observations from a re-analysis of the deposited data

How the results depend on the processing

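No member passed an adjusted p under 0.05 in limma under any of the 15 alternatives. The count over all genes, 1 as reported, was 0 under a variance taken from each gene alone, and 2 with an intensity trend, with a mean of at least 5 FPKM and with no filter. It was 0 to 3 when 1 sample was left out. Apln itself had adjusted p of 0.497 under that variance, 0.108 without Apelin-KO 2 and 0.0770 without WT 2. Genes with an unadjusted p under 0.05, 1033 as reported, were 536 without WT 2, 675 without WT 1 and at most 1228 with any other sample left out. Members with such a p, 1 as reported, were 2 with an intensity trend and with a mean of at least 5 FPKM, where Itga1 joined Itgb5 (p of 0.0417 and 0.0491). The count was again 1 under a variance taken from each gene alone, but of another member, Itga5 (p of 0.0476) in place of Itgb5 (p of 0.106). With 1 sample left out the count was 0 to 2. Without WT 1 the member was Itga2 (p of 0.0383 in limma) in place of Itgb5 (p of 0.0751). Itgb5 was joined by Itga2 without Apelin-KO 3 (p of 0.0475), Itgb4 without Apelin-KO 2 (p of 0.0239) and Itga1 without WT 3 (p of 0.0110). Members whose groups did not overlap, 1 as reported, were 1 to 4 with 1 sample left out. Smaller groups separate more easily, and the share over all genes was not taken in these settings. These counts are therefore no result about the members. Itgb5 had an unadjusted p under 0.05 in 11 of 15 alternatives (p of 0.0106 to 0.106, adjusted p of 0.257 to 0.939), with log2 fold changes of -1.07 to -0.54 with 1 sample left out.

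Leaving out 1 sample turned the direction of small differences, with log2 fold changes from lowest to highest of -0.32 to 0.10 for Itgav, -0.13 to 0.17 for Itgb3, -0.02 to 0.36 for Itga7, -0.04 to 0.16 for Itga2b, -0.12 to 0.10 for Mcam, -0.04 to 0.41 for Mpzl3 and -0.02 to 0.35 for Pelo. The differences in log2 ratio ran from -0.03 to 0.13 for Itga5 to Itgb1, -0.15 to 0.26 for Itga1 to Itga2 and -0.01 to 0.07 for Itga6 to Itgb1. The labels do not say whether same-numbered samples were paired. The deviations of same-numbered samples had correlations of -0.14, 0.21 and -0.02, and those of samples with different numbers -0.2 to 0.21. Deviations from a group mean constrain each other, so these values cannot decide it. With a replicate block 1 gene had an adjusted p under 0.05 and 893 an unadjusted one, and Itgb5 kept its log2 fold change of -0.82 (unadjusted p of 0.0300).

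Groups of 3 samples allow no exact permutation p below 0.1. Itgb5 rests on 123 to 493 reads per sample, estimated with its longest transcript. The cause of the changes with the setting was not tested.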

Other observations

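No gene of the marker or ligand lists had an adjusted p under 0.05 in limma. All 15 endothelial markers were higher by mean in Apelin-KO. Their log2 fold changes had a median of 0.22. Of 14 hematopoietic markers tested 13 were lower (median -1.21), as were 7 of 7 fibroblast markers (median -0.60), and their part in the endothelial values was not tested. Of the endothelial markers 4, Pecam1, Cdh5, Tie1 and Vwf, did not overlap between groups, or 4 of 15 where 7.77% of all genes lay above WT. Pecam1, the CD31 antigen used in the sort, measured 586, 553 and 671 FPKM in WT and 689, 745 and 846 FPKM in Apelin-KO. Cdh5, the adhesion molecule of endothelial junctions, had a log2 fold change of 0.46. The matrix proteins Ctgf and Cyr61, which also bind integrins, were higher in every Apelin-KO sample than in every WT sample, with log2 fold changes of 0.66 and 0.36. Esam, the endothelial marker with the highest level, measured 871 to 1058 FPKM in WT and 1038 to 1192 FPKM in Apelin-KO. The hematopoietic markers with the highest levels were Lyz2 at 40.9 to 380 FPKM and Fcer1g at 18.2 to 134 FPKM.

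Pericytes share the basement membrane with ECs. Of 9 pericyte markers tested 6 were higher by mean in Apelin-KO. Of these 2, Rgs5 and Higd1b, had an unadjusted p under 0.05 in limma and no overlap, where 4.25% and 7.77% of all genes did in that direction. The 3 lower ones were Cspg4 (log2 fold change -0.35), Tagln (-0.30) and Mcam (-0.01), and Pdgfrb had 0.29, all with overlapping groups. Rgs5, a regulator of G protein signalling in pericytes, measured 3.48, 3.17 and 3.66 FPKM in WT and 6.83, 7.86 and 8.67 FPKM in Apelin-KO. Its log2 fold change was 0.98 (SE 0.11), with an unadjusted p of 5.86e-05 and an adjusted p of 0.214 in limma. Higd1b measured 0.930, 3.99 and 1.44 FPKM in WT and 8.88, 5.52 and 5.60 FPKM in Apelin-KO, with a log2 fold change of 1.39, an unadjusted p of 0.00570 and an adjusted p of 0.501. Both names can be read in the picture of the study's heat map, whose genes were chosen on these samples, so their direction is not independent evidence. The summed level of all 12 markers listed, most of it Mcam, was 587 to 752 FPKM in WT and 657.5 to 768 FPKM in Apelin-KO. Mcam, which ECs also express, measured 436 to 571 FPKM and Kcnj8 63.9 to 108 FPKM. Among the 6 lymphatic endothelial markers, Ccl21a reached 39.1 FPKM in Apelin-KO 2 and at most 0.484 FPKM in the other samples. Lyve1 measured 84.8, 24.0 and 29.6 FPKM in WT and 20.4, 43.6 and 68.2 FPKM in Apelin-KO, and Flt4 lay between 83.1 and 139 FPKM.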
